A study of Homo sapiens with 8 samples.

Results

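PPP2R5A, 8 further subunit genes of protein phosphatase 2A (PP2A) and MYC were followed in splice-junction reads of K562, a human erythroleukaemia cell line. The 10 genes were chosen by name, and their junctions were taken as those lying in their GENCODE release 29 introns or sharing a splice site with them; 20720 genes had reads in all. The cells carried SF3B1 as wild type or as the K700E mutant, and every group has the same treatment label, doxycycline at 1 µg/ml to induce the modified allele. Libraries were made at day 4 and at day 8, with 2 libraries for each genotype and day and 8 in all. The labels do not say how the allele was introduced, whether the cells are 1 clone, or whether the replicates are separate cultures, so p-values measure only the spread between these libraries, which may be technical.

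PP2A is a serine/threonine phosphatase built from a scaffold subunit (PPP2R1A or PPP2R1B), a catalytic subunit (PPP2CA or PPP2CB) and a regulatory subunit that selects the substrate. The B56 family (PPP2R5A to PPP2R5E) is a class of regulatory subunits, and PP2A with B56alpha, the product of PPP2R5A, is known to remove a stabilising phosphate from the MYC protein. SF3B1 is the part of the U2 snRNP that sits at the branch point, and hotspot mutants such as K700E are known for using cryptic acceptors (3′ splice sites) a short distance upstream of the normal ones. The study compared expression and splicing between the genotypes.

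The libraries held 49338071 to 77750812 uniquely mapped junction reads each. The labels were checked on 10 acceptors known to respond to SF3B1 hotspot mutants, PPP2R5A not among them, as the median share of reads that used the cryptic acceptor. For wild type at day 4 that median was 2.08% in replicate 1 and 3.22% in replicate 2, and for K700E 47.8% and 44.0%. Day 8 libraries with the label wild type gave 1.0% and 51.5%, and those with the label K700E 3.96% and 49.5%. The day 4 libraries thus follow their labels, and at day 8 the library labelled wild type replicate 2 and the library labelled K700E replicate 1 go against theirs. No library was moved, day 4 is given first, and no direction is drawn from the day 8 labels. Alignment directories carried 1 month for all day 4 libraries and a different month for each genotype at day 8, so at day 8 the labelled genotype and the directory cannot be told apart. The labels describe the cells as epithelial. All 11 erythroid markers had reads, summing to 409 to 1170 RPM per library (reads-per-million, that is unique reads over introns of 1 gene, scaled to the library's sum of such reads). All 8 epithelial markers also had reads, summing to 473 to 2800, of which the keratin KRT18 had 209 to 1280, EPCAM 7.39 to 99.2 and CDH1 (E-cadherin) at most 0.0409.

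The sequences around the PPP2R5A event are shown because they set its reading frame. PPP2R5A (ENSG00000066027.11, hg38, chromosome 1, 212285537 to 212361863, plus strand) has 12 introns in its reference transcript. Its cryptic acceptor lies in intron 4, with the last intron base at 212345789, 13 nt upstream of the canonical one at 212345802. The 2 exons it joins, in GENCODE release 29 transcript sequence, end and begin as follows, with the capitals marking the stop codon met in the shifted frame.
Exon 4, last 30 nt (chr1:212342251-212342280): cgatacattgatcagaaattcgtacaacag
Exon 5, first 30 nt (chr1:212345803-212345832): ctcctggagcttttTGAtagtgaagatccc
Exon 5 begins at a codon boundary, and 13 added nt shift its frame. Read in that frame, TGA occupies nt 15 to 17 of exon 5, and 738 nt lie between it and the last exon junction. Exon 4 is 93 nt long, so skipping it does not alter the frame, and the same stop is met when exon 3 is joined to the cryptic acceptor. A stop far upstream of the last junction is the textbook mark of nonsense-mediated decay, which was not measured here; the 13 nt themselves were not read.

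The other B56 genes have a 131-nt exon preceded by a 93-nt exon at the homologous place. Their first 30 nt are printed to show how alike the coding side of the site is, with capitals where a base differs from PPP2R5A.
PPP2R5B exon 6 (chr11:64928295-64928324): ctcctggagctAtttgatagtgaGgatccc
PPP2R5C exon 5 (chr14:101883432-101883461): ctTTtAgagctCtttgaCagtgaagatccT
PPP2R5D exon 7 (chr6:43007935-43007964): ctcctAgaCctAtttgaCagtgaGgatccT
PPP2R5E exon 6 (chr14:63396687-63396716, minus strand): ctTctggagctAtttgaCagCgaagaCccT
PPP2R5B differed from PPP2R5A at 2 of these 30 bases and the other 3 genes at 6 each. Over the whole exon, identity with PPP2R5A ran from 71.0% in PPP2R5D to 77.9% in PPP2R5E. No read in any library used an acceptor 1 to 50 nt upstream of this exon in the other 4 genes. The canonical junction had 757 reads in PPP2R5B, 8902 in PPP2R5C, 5849 in PPP2R5D and 3337 in PPP2R5E. A count of 0 thus allows a share of up to 0.396%, 0.0337%, 0.0513% and 0.0899%, for counting error only. In PPP2R5A such acceptors took 294 reads against 3612 at the canonical one.

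At day 4 the K700E libraries spliced PPP2R5A exon 4 to the cryptic acceptor far more often than the wild-type libraries did. Of reads leaving exon 4, 15 of 895 (1.68%) and 14 of 722 (1.94%) used it in wild type. In K700E the numbers were 98 of 437 (22.4%, 95% Wilson interval 18.8 to 26.6) and 88 of 426 (20.7%, 17.1 to 24.8). Both K700E libraries were high, and the groups did not overlap. The means were 1.81% ± 0.184 and 21.5% ± 1.2 (SD, n = 2), and the share rose by 19.73 percentage points (edgeR's diffSpliceDGE, Benjamini-Hochberg adjusted p = 0.00138). Calls needed both an adjusted p below 0.05 and a shift of 5 points or more. In RPM, the cryptic junction went from 0.231 ± 0.0421 to 1.37 ± 0.0534 and the canonical one from 12.8 ± 3.63 to 5.02 ± 0.565, so the gain in cryptic reads was smaller than the loss of canonical ones. The call was lost when either wild-type library was left out (adjusted p = 0.137 and 0.151 by edgeR). It was also lost in the fit of all 8 libraries (adjusted p = 1.0 by edgeR), where the spread of the day 8 libraries enters. For day 4, that fit called 0 of the 94959 junctions sharing a donor in all genes.

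In the day 4 K700E libraries, reads that skipped exon 4 held a higher share of cryptic acceptor use than reads that kept it. Among reads joining exon 3 directly to exon 5, 2 of 82 (2.44%) and 3 of 46 (6.52%) went to the cryptic acceptor in the day 4 wild-type libraries. In day 4 K700E it was 54 of 96 (56.2%, 95% Wilson interval 46.3 to 65.7) and 26 of 35 (74.3%, 57.9 to 85.8), again without overlap. These intervals lie above those of the exon 4 donor in the same K700E libraries, while in both wild-type libraries the intervals of the 2 donors overlap; the difference between donors was not tested. Neither exon 3 junction is in the annotation. As a share of all reads leaving exon 3, the exon 3 to cryptic junction was at 0.187% and 0.339% in wild type and at 8.54% and 5.02% in K700E. With 2 and 3 reads in wild type, this junction met the read minimum only through the K700E libraries, so its difference of 6.52 percentage points is a description. Skipping of exon 4 as a whole did not separate the groups, at 7.69% and 5.2% in wild type and 15.2% and 6.76% in K700E. With both donors summed, the cryptic share at day 4 was 1.74% and 2.21% against 28.5% and 24.7%.

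At day 8 the exon 4 share followed the label check and not the labels. Wild type, as labelled, had 6 of 634 reads (0.946%) and 48 of 260 (18.5%) at the cryptic acceptor. Those labelled K700E had 10 of 416 (2.4%) and 8 of 109 (7.34%). The library labelled K700E replicate 2 was lower from the exon 4 donor than its 49.5% at the 10 check acceptors would place it, but 61 of its 89 exon 4-skipping reads (68.5%) were cryptic. In that library exon 4 was skipped in 36.8% of reads leaving exon 3, the highest of the 8, and 88.4% of its cryptic reads came from exon 3. With both donors summed the day 8 shares were 3.13%, 26.6%, 4.12% and 34.8% in the same library order, which is the order of the label check within each group. The labelled difference at day 8 was -4.83 points from exon 4 and was not called (edgeR, adjusted p = 1.0). The mean of both days was 7.45 points (adjusted p = 1.0 by edgeR) and the difference between days -24.57 points (adjusted p = 0.758 by edgeR).

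**Figure D1:**
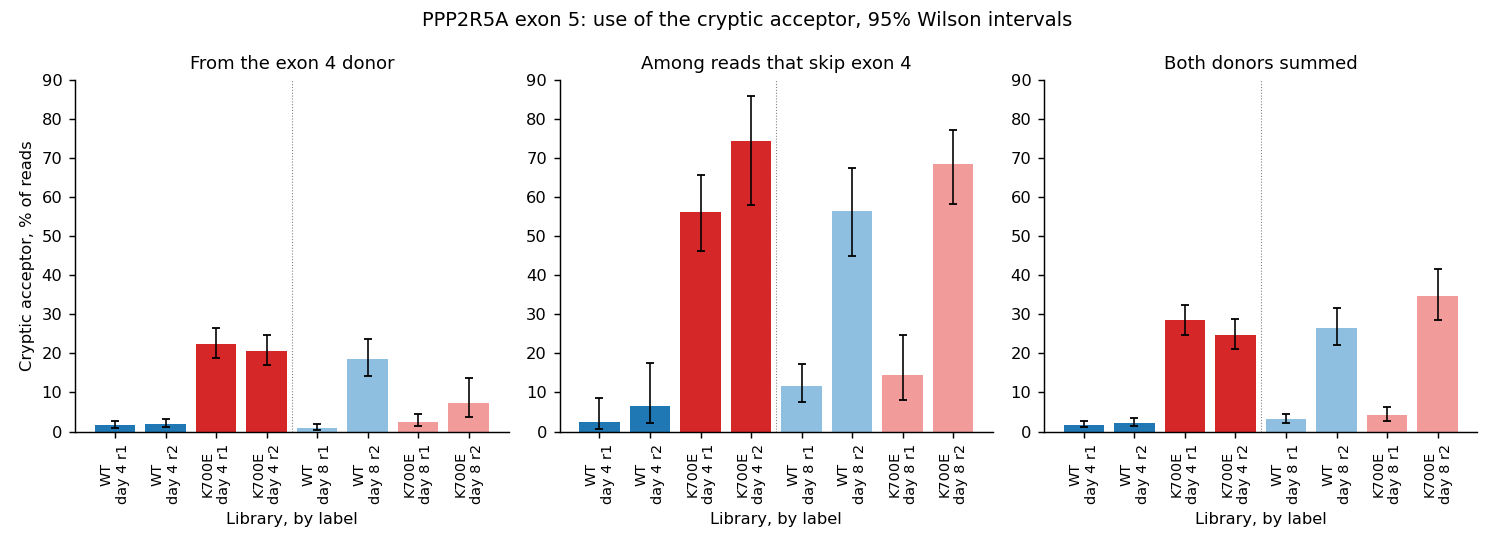
Share of reads (%) at the PPP2R5A cryptic acceptor in each library, from the exon 4 donor, among reads that skip exon 4, and with both donors summed; bars are single libraries and error bars 95% Wilson intervals. From the exon 4 donor the day 4 K700E libraries stand at 22.4% and 20.7% against 1.68% and 1.94%, and at day 8 the libraries labelled replicate 2 are the higher ones in both genotypes.

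Junction calls among the members at day 4 were at this acceptor in edgeR's test. Of 74 member junctions tested against others from the same donor, 2 were called. An unadjusted p under 0.05 was found for 6 of the 74, and for 4903 of the 69838 junctions in all genes. The called ones are the PPP2R5A junctions above, both higher, beside 0.468% called (0.359% called higher) of the 69838 junctions tested in all genes. The one from exon 3 was tested only because its K700E reads met the minimum, so the count of 2 rests in part on that. Of 66 tested against others with the same acceptor, 0 were called beside a background of 0.0309%, and limma's diffSplice also called 0. An unadjusted p under 0.05 was found for 2 of the 66, and for 3649 of the 64625 in all genes. The other tested acceptor within 50 nt upstream of a main one lies in PPP2R5D, is annotated and had 45 reads over the 8 libraries. The remaining near-upstream acceptors of members were not tested and had at most 14 reads each. PPP2CA, the main catalytic gene, had 6 of them with 38 reads in total, and PPP2R1A had none.

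A second PPP2R5A event did not pass the test. An unannotated 48-nt exon in intron 6 (chromosome 1, 212347974 to 212348021) took 0.305% and 0.535% of reads on its upstream side in wild type and 2.84% and 3.63% in K700E at day 4. The groups did not overlap, the difference was 2.81 points, and the adjusted p was 0.115 (edgeR); this junction too met the read minimum only through the K700E libraries. Its downstream side read 0.464% and 0.813% against 4.11% and 3.89%. At day 8 the downstream side had 0 reads in all 4 libraries, which allows shares of up to 1.12% to 3.41%. The upstream side, by contrast, had 15 of 283 reads (5.3%) in the library labelled wild type replicate 1.

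Near-upstream acceptors of other genes whose use over the 8 libraries was nearest to that of PPP2R5A were named by root mean square difference among 3619 acceptors. They were those of SAFB2, a nuclear scaffold protein, at 3.0 percentage points, MUT, methylmalonyl-CoA mutase, at 3.14, CDK8, the Mediator kinase, at 3.28, and NBEAL1 at 3.64. They lie 13 to 24 nt upstream of the canonical acceptors. Those of SAFB2, MUT and CDK8 were called at day 4, and the NBEAL1 one was not (edgeR, adjusted p = 0.148). In day 4 wild type the MUT and NBEAL1 acceptors were at 0.0% in both libraries and the CDK8 one at 0.265% and 0.0%. The junctions of MUT, NBEAL1 and CDK8 thus met the read minimum only with K700E reads, so their tests are a description. The values are a description, since the libraries are the same ones.

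The level of PPP2R5A was lower in both day 4 K700E libraries, without a call in the main test. It had 192 and 160 RPM in wild type and 93.1 and 88.8 in K700E. The groups did not overlap, with means of 176 ± 23.2 and 91.0 ± 3.03 (SD, n = 2). The log2 change was -1.05 (SE 0.14), with an adjusted p of 0.0589 by edgeR's quasi-likelihood test. DESeq2 gave -1.04 with an adjusted p of 2.96e-08, but it called 11.7% of all genes where edgeR called 0.529% of 13991. edgeR without a filter on low counts gave an adjusted p of 0.000106, with 7.95% of genes called. Leaving out K700E replicate 1 or 2 also brought it past the threshold (adjusted p = 0.00104 and 0.00222 by edgeR, with 17.6% and 8.55% of genes called). Without wild-type replicate 1 or 2 the adjusted p was 0.459 and 0.398 by edgeR, and in the fit of all 8 libraries 0.558. In bulk RNA, fewer cells that express a gene and less RNA per cell cannot be told apart.

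The lower level ran along the whole transcript. All 12 annotated introns had fewer RPM in both K700E libraries than in either wild-type library at day 4. K700E held 39.3% of the wild-type mean at intron 4, where the cryptic acceptor diverts reads from the annotated junction, and 48.1% to 56.3% at the other introns, with a median over the 12 of 51.8%. Summed over introns away from the site, PPP2R5A gave a log2 change of -1.03 (edgeR, adjusted p = 0.0562). Intron 7, for example, had 16.9 and 16.9 RPM in wild type and 8.31 and 8.51 in K700E.

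At day 8 the PPP2R5A level split within each labelled group. By label, wild type had 116 and 46.7 RPM and K700E 113 and 38.3. The low libraries were the replicate 2 libraries, the same ones that were high at the cryptic acceptor with both donors summed. The labelled change was -0.09 (SE 0.68, edgeR adjusted p = 1.0), and the day 4 and day 8 changes differed by 1.01 (SE 0.79, edgeR adjusted p = 0.73).

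**Figure D2:**
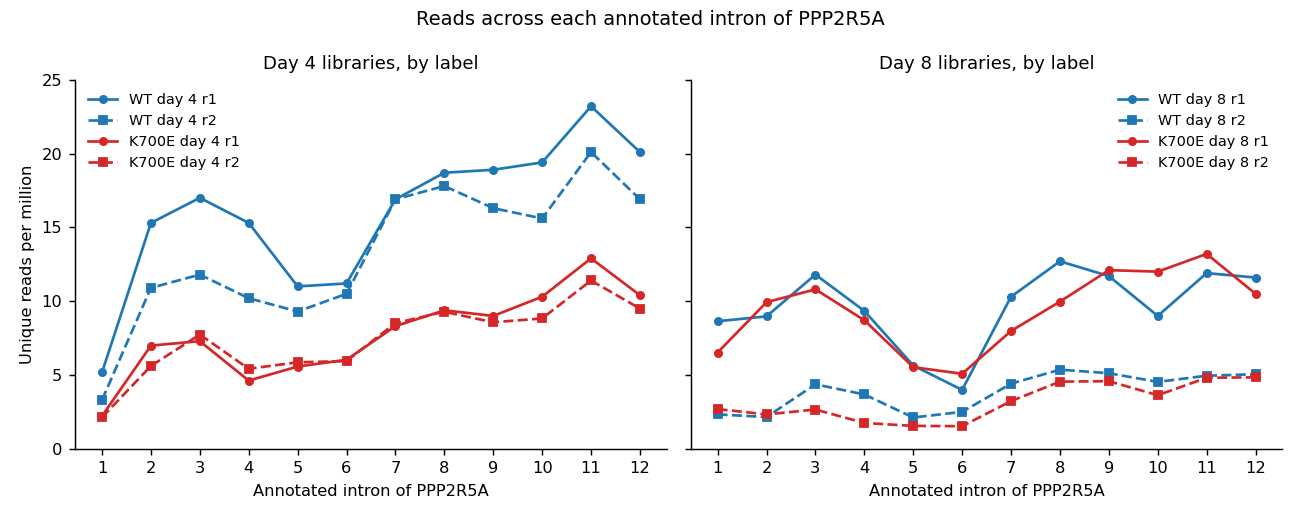
Unique reads (RPM) across each of the 12 annotated introns of PPP2R5A, by library; lines are single libraries, blue for wild type and red for K700E as labelled, circles for replicate 1 and squares for replicate 2. At day 4 both K700E lines lie under both wild-type lines at every intron, and at day 8 the lines split by replicate number instead of by label.

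The 5 genes whose level over the 8 libraries was nearest to PPP2R5A, among 8036 of at least 10 CPM (the same counts scaled with edgeR's TMM factors), were SEPSECS, a selenocysteine synthesis enzyme, RDX, the membrane linker radixin, MUT, SLCO4C1, an organic anion transporter, and JMJD1C, a chromatin protein. Their root mean square differences from PPP2R5A were 0.12, 0.20, 0.22, 0.23 and 0.23 on the log2 scale. MUT is thus near PPP2R5A in both lists. SEPSECS had 24.7 and 23.6 CPM in wild type and 13.5 and 13.9 in K700E at day 4, and 13.9, 6.21, 14.3 and 5.23 in the 4 day 8 libraries.

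The other B56 genes were not called at day 4, and none was near the size of the PPP2R5A change. PPP2R5B had 14.5 and 18.9 RPM in wild type and 15.1 and 11.1 in K700E (log2 change -0.45, SE 0.25). PPP2R5C had 270 and 243 against 329 and 229 (0.02, SE 0.19). PPP2R5D had 158 and 150 against 152 and 135 (-0.20, SE 0.12). PPP2R5E had 96.7 and 108 against 106 and 110 (-0.03, SE 0.14). Wild-type and K700E libraries overlapped in PPP2R5B, PPP2R5C, PPP2R5D and PPP2R5E, and edgeR's adjusted p ran from 0.366 to 0.959. At day 8 the values in RPM were 20.3, 25.1, 18.7 and 33.1 for PPP2R5B, 160, 132, 123 and 132 for PPP2R5C, 112, 113, 94.5 and 118 for PPP2R5D, and 61.5, 64.4, 59.9 and 64.3 for PPP2R5E, in the order wild type replicates 1 and 2, then K700E, as labelled. PPP2R5C, PPP2R5D and PPP2R5E were lower in every day 8 library than in any day 4 library; day and alignment directory differ together, and the day difference was not tested.

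Levels between genes can be compared per intron, as the mean RPM over the introns of each gene's reference transcript, without reads of its other introns. On that scale PPP2R5A made up 30.2% and 26.9% of the B56 reads in day 4 wild type and 15.8% and 17.7% in K700E. PPP2R5C, the most-read B56 gene, made up 34.0% and 33.4% against 44.8% and 38.7%. The summed B56 level was 53.0 and 49.5 against 49.0 and 41.8 RPM per intron. PPP2R5A was thus the second most-read B56 gene in both wild-type libraries and the fourth in both K700E libraries, after PPP2R5C, PPP2R5D and PPP2R5E. At day 8, by label, its share was 28.0% and 14.3% in wild type and 31.2% and 11.8% in K700E. With 2 libraries against 2, an exact permutation test cannot go below p = 0.333, and no other test of these shares was run.

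**Figure D3:**
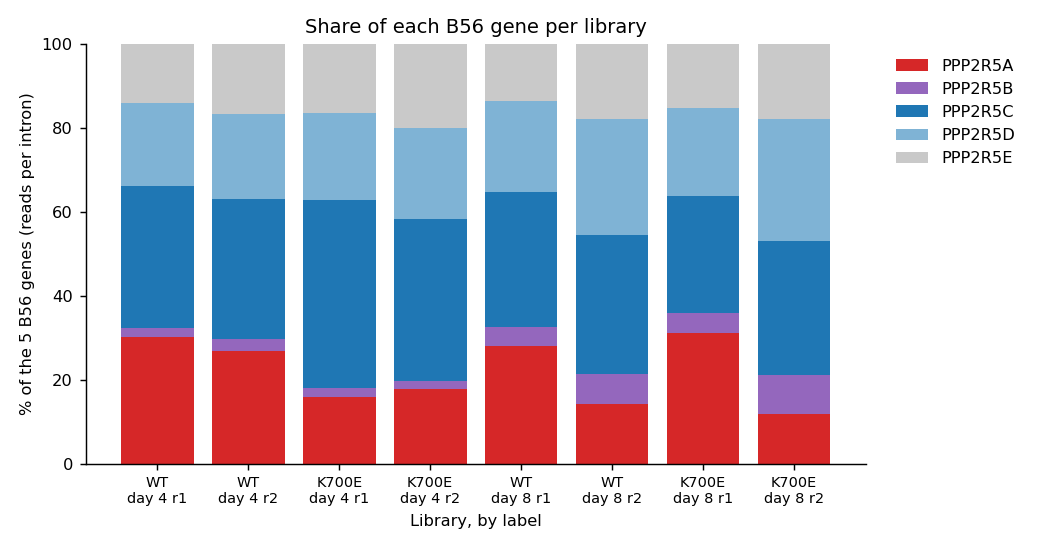
Share (%) of each of the 5 B56 genes in their summed reads per intron, in each library as labelled; each bar is 1 library. The PPP2R5A segment is 30.2% and 26.9% in day 4 wild type against 15.8% and 17.7% in day 4 K700E, and is small again, at 14.3% and 11.8%, in both day 8 replicate 2 libraries.

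The donor joined to 1 common exon of PPP2R5C varied between replicates. Compared were the junctions from 101786184 and from 101810037 into the exon after 101856685 on chromosome 14. The upstream one of this pair took 52.9% and 51.2% of the pair's reads in day 4 wild type and 63.3% and 37.2% in K700E. Other junctions into the exon were left out of these shares. The K700E replicates lay on either side of wild type. By label, day 8 gave 28.4% and 30.1% for wild type and 42.4% and 48.9% for K700E, without overlap. No PPP2R5C junction was called at either day.

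The catalytic and scaffold subunits were also not called. PPP2CA had 204 and 196 RPM in wild type and 195 and 167 in K700E at day 4 (log2 change -0.24, SE 0.13, edgeR adjusted p = 0.346). PPP2CB, the other catalytic gene (chromosome 8), had 115 and 103 against 123 and 109, a log2 change of 0 to 2 decimals (SE 0.13). PPP2R1A, the main scaffold gene, had 201 and 177 against 200 and 209 (0.02, SE 0.13). PPP2R1B, the second scaffold gene, had 80.6 and 94.6 against 103 and 130 (0.31, SE 0.18, edgeR adjusted p = 0.379). PPP2R1B was the one of these 4 whose K700E libraries were both above wild type, and PPP2CA the one whose K700E libraries were both below.

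Per intron, PPP2CA was the most-read subunit gene at day 4, at 33.3 ± 0.965 in wild type and 30.2 ± 3.25 in K700E (SD, n = 2). PPP2CB followed at 18.2 ± 1.52 in wild type, with PPP2R5C at 17.3 ± 1.06, PPP2R5A at 14.7 ± 1.93 and PPP2R1A at 13.5 ± 1.18. The libraries of PPP2CB and PPP2R5C overlap, as do those of PPP2R5A and PPP2R1A, while both wild-type libraries of PPP2R5C lie above both of PPP2R5A. PPP2R5D stood at 10.3 ± 0.375, PPP2R5E at 7.81 ± 0.649, PPP2R1B at 5.35 ± 0.624 and PPP2R5B, at the bottom, at 1.25 ± 0.233. In K700E, PPP2R5A stood at 7.57 ± 0.25, beside PPP2R5E at 8.22 ± 0.224 and PPP2R1B at 7.17 ± 1.18.

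At day 8 PPP2R1A had, by label, 230 and 234 RPM in wild type and 315 and 297 in K700E. These groups did not overlap, and the log2 change of 0.40 (SE 0.20) was not called (edgeR, adjusted p = 1.0). PPP2R1B had 117, 123, 122 and 122, PPP2CA 189, 169, 201 and 213, and PPP2CB 105, 115, 110 and 151. Over the 10 members 0 were called at day 8 by edgeR and 0 by DESeq2, and 0 had an unadjusted p under 0.05; edgeR also called 0 of all 13990 genes there. For the mean of both days edgeR and DESeq2 called 0 members, and for the difference between days edgeR called 0. In that difference 1 member, PPP2CA (0.50, SE 0.21), had an unadjusted p under 0.05, as did 9.2% of all genes.

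**Figure D4:**
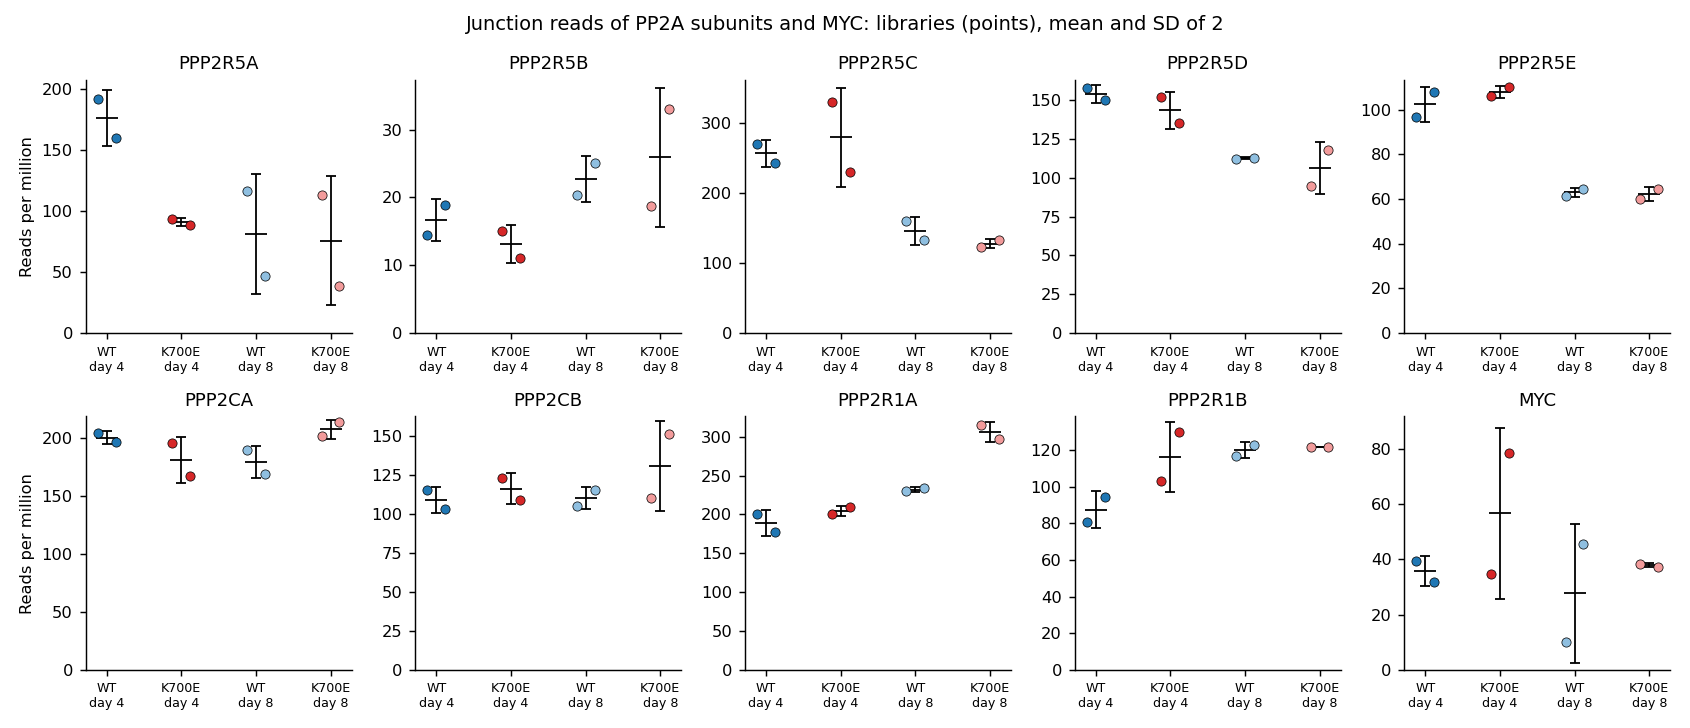
Unique reads (RPM) of the 10 genes; points are single libraries in their labelled groups, and bars the mean and SD of 2. PPP2R5A is lower in both day 4 K700E libraries (93.1 and 88.8) than in wild type (192 and 160), and MYC runs from 34.8 to 78.5 within day 4 K700E.

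MYC, the transcription factor whose protein the B56 subunits help to turn over, was set by 1 library at day 4. It had 39.5 and 31.9 RPM in wild type and 34.8 and 78.5 in K700E. K700E replicate 1 lay between the wild-type libraries and replicate 2 above both. The log2 change was 0.58 (SE 0.39, edgeR adjusted p = 0.448). Without K700E replicate 1 it was 1.06, and without K700E replicate 2 it was -0.15, each with 1 K700E library left. At day 8 MYC had, by label, 9.92 and 45.5 RPM in wild type and 38.5 and 37.4 in K700E, and the labelled change was 0.47 (SE 0.69, edgeR adjusted p = 1.0). The lowest of the 8 values came from the library with the fewest junctions listed, 211347; the part of that in the value was not tested. Only the RNA was measured, not the MYC protein.

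MYC junction use at day 4 was close between the genotypes. Of the annotated acceptors of intron 1 (chromosome 8, from 127736624), 2 lie 3 nt apart, at 127738247 and 127738250. A further one, at 127738291, was left out of the shares given here. The downstream one of the pair took 28.2% and 29.1% of the pair's reads in wild type and 29.5% and 29.9% in K700E. Day 8 wild type, as labelled, had 10 of 371 reads there (2.7%, 95% Wilson interval 1.47 to 4.89) and 344 of 1405 (24.5%). Those labelled K700E had 27.3% and 21.6%. The library labelled wild type replicate 1 thus stood apart here and in MYC level. None of the 5 MYC junctions tested by shared donor was called.

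Among genes nearest to MYC in level over the 8 libraries were EBPL at a root mean square log2 difference of 0.32, NCS1 and DBF4B at 0.35, GCSH at 0.38 and CPNE7 at 0.39. EBPL, the nearest, had 11.1 and 11.1 CPM in wild type and 16.9 and 24.2 in K700E at day 4. These distances are larger than the 0.12 to 0.23 of the genes nearest to PPP2R5A.

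Partners, regulators and substrates of PP2A centred near the median of all genes at day 4. Of 31 listed genes 28 were tested, 0 were called by edgeR, 6 had an unadjusted p under 0.05 (21.3% of all genes did), and their median log2 change was 0.01 against 0.02 over all genes tested; PPP2R2B, PPP2R2C and PPP2R3B were not tested. DESeq2 called 2 of them, both lower, beside its 11.7% of all genes. CIP2A, an inhibitor of PP2A on MYC, had 62.5 and 80.2 RPM in wild type and 89.4 and 107 in K700E (0.36, SE 0.19, edgeR adjusted p = 0.334). The inhibitor SET had 1310 and 1510 against 1280 and 1490, and ANP32A, a second inhibitor, 220 and 210 against 215 and 284. The activator PTPA had a change of 0.03, and the enzymes that add and remove the methyl group of the catalytic subunit, LCMT1 and PPME1, had 0.08 and -0.26. The B55 regulatory gene PPP2R2A had 0.08.

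The list's lowest changes were in FOXO3, a transcription factor downstream of AKT, at -1.0, SGO1, the centromere guardian that recruits PP2A, at -0.62, and STRN3, a striatin regulatory subunit, at -0.55. The highest were in AKT1 at 0.38, CIP2A at 0.36 and PPP2R3C at 0.30. FOXO3 had 8.08 and 7.99 RPM in wild type and 5.23 and 3.38 in K700E, without overlap (edgeR, adjusted p = 0.147). SGO1 had 55.3 and 63.5 against 37.6 and 45.0 (edgeR, adjusted p = 0.141). BCL2, an apoptosis inhibitor and PP2A substrate, was hardly read, at 0.545 to 1.54 RPM at day 4.

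The MYC network list, which holds MYC's dimer partners, their competitors, and the enzymes that modify or degrade MYC, had 31 of 32 genes tested at day 4. edgeR called 0 of them, 5 had an unadjusted p under 0.05 where 21.3% of all genes had one, DESeq2 called 2 beside its 11.7% of all genes, and the median log2 change was -0.07. MAX, the obligate partner, had 48.7 and 43.5 RPM in wild type and 44.0 and 38.3 in K700E (-0.26, SE 0.15). FBXW7, the ubiquitin ligase subunit that binds phosphorylated MYC, had 35.5 and 30.5 against 35.0 and 28.3, and USP28, a deubiquitinase that counters it, 55.2 and 62.9 against 69.2 and 75.2. PIM1, a kinase, had a change of 0.07. The largest positive values were RUVBL1, an AAA ATPase of MYC-bound complexes, at 0.80 (116 and 127 against 211 and 242 RPM, edgeR adjusted p = 0.0871), PIM2 at 0.38 and RUVBL2 at 0.36. The largest negative values were MXD1, an antagonist that competes for MAX, at -0.92, the kinase PIM3 at -0.85 and a further antagonist, MXD4, at -0.74. In MXD1, K700E replicate 2 was low, at 9.55 RPM, against 26.9 in replicate 1 and 35.0 and 29.6 in wild type.

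Genes of the MYC target list, mostly ribosome-building and metabolic genes, stood higher as a rule in day 4 K700E, though the called gene was lower. Of 35 tested, 26 had a positive and 9 a negative change, with a median log2 change of 0.37 against 0.02 over all genes tested, of which 51.4% were positive. An unadjusted p under 0.05 was found for 14 higher and 3 lower, or 17 of 35, where 21.3% of all genes had one. edgeR called 1, LDHA, which was lower, beside the background of 0.529%, and DESeq2 called 7 higher and 3 lower, beside its 11.7% of all genes. By the day 8 labels, which the cryptic acceptors did not follow, 27 changes were positive and 8 negative. Their median there was 0.29 against 0.01 over all genes tested, of which 51.0% were positive. No direction is drawn from these day 8 values, and the cause of the target levels was not tested. The list was written with earlier results of these data known. The count of called targets moved with the library left out, as did the share of all genes called: edgeR called 19 without K700E replicate 1, when it called 17.6% of all genes, and 5 without K700E replicate 2, when it called 8.55%. It called 0 without either wild-type library, so that LDHA was lost too.

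LDHA, lactate dehydrogenase A, had 2370 and 2600 RPM in wild type and 882 and 927 in K700E at day 4. It fell by 1.55 on the log2 scale (SE 0.12, edgeR adjusted p = 0.0255). Day 8 levels were, by label, 1070 and 708 for wild type and 799 and 729 for K700E, all below the day 4 wild-type level. CDK4, a cell-cycle kinase, had 174 and 163 against 124 and 120 (-0.56, edgeR adjusted p = 0.104), and EIF4E, the cap-binding factor, -0.49. The largest positive values were TERT, telomerase, at 1.18, from 1.32 to 4.93 RPM at day 4, MYBBP1A, a nucleolar protein, at 1.08 (46.3 and 40.0 against 73.5 and 121) and RRP12, a ribosome export factor, at 0.95 (56.7 and 59.3 against 101 and 139). In each of TERT, MYBBP1A and RRP12 the higher K700E value was that of replicate 2, the library high in MYC. LDHA, which fell, was also higher in that library than in K700E replicate 1, and CDK4 was lower. A link of these values to the MYC level was not tested. The abundant nucleolar genes NPM1 and NCL had 0.09 and 0.22, and ODC1, the polyamine enzyme, 0.06.

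Markers of a further lineage differed in level between the genotypes at day 4. Of the 10 megakaryocyte markers 9 had reads and GP1BB none. They summed to 11.6 and 21.5 RPM in wild type and 125 and 122 in K700E. ITGA2B, an integrin subunit, was called higher (2.60, edgeR adjusted p = 0.0418). It was the 1 call among the 4 of these markers tested, where edgeR called 0.529% of all genes. The 11 erythroid markers summed to 1170 and 958 against 960 and 420, lowest in K700E replicate 2. At day 8 the megakaryocyte sums were, by label, 103 and 86.1 RPM in wild type and 40.4 and 554 in K700E. The part of either marker set in the member values was not tested.

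**Figure D5:**
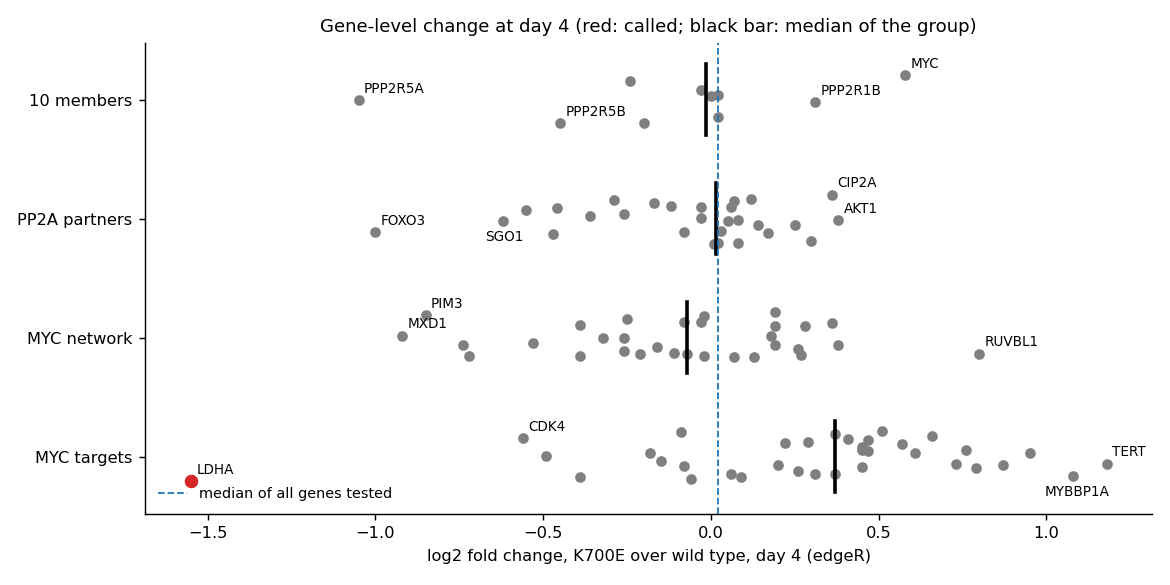
log2 fold change of K700E over wild type at day 4 (edgeR) for the 10 members and for the tested genes of the 3 lists; points are genes, red where called, black bars group medians, and the dashed line the median of all genes tested (0.02). PPP2R5A lies apart among the members at -1.05, the MYC targets centre at 0.37, and LDHA at -1.55 is the one called.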

How the data were processed

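Total RNA was sequenced strand-specifically, per the labels' protocols. Reads were trimmed with cutadapt and aligned to hg38, per the submitters' processing notes, with STAR 2.7.0e, an index of GENCODE release 29 and release 22 added at mapping, per the file headers. The deposited values are, for each junction, raw read counts, in 1 column for unique and in another for multiple mappings; the files also give motif, annotation and overhang columns. Here unique counts were used, and introns of 1 gene held 94.5% of them. Gene sums were tested with edgeR 4.0.16 (quasi-likelihood, TMM, expression filter), and junctions with diffSpliceDGE, where at least 5 unique reads were seen in 2 libraries and the shared site averaged 20. P-values were adjusted over all features. Day 4 and day 8 were fitted on their own 4 libraries, and the mean and difference of days on all 8. Alternatives used DESeq2 1.42.0 and limma 3.58.1, other filters and scalings, a replicate block and leaving out each library. The fits were tested on simulated data. Software was R 4.3.3 and Python 3.11.15.

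The members and lists were chosen with earlier results of these data known. Genes named are the 10 members, from each list the called genes and the 3 largest rises and falls at day 4, 17 fixed partners and targets, and the 5 genes and acceptors nearest in pattern; 1 of these acceptors is not reported here. ITGA2B was named after its values were seen. The 13 nt between the acceptors were not analysed here. Positions are 1-based.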

Additional observations from a re-analysis of the deposited data

How the results depend on the processing

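The direction of the PPP2R5A acceptor and gene-level changes at day 4 held in every alternative run; calls did not. In the 8-library fit the acceptor change stayed at 19.73 points but was not called, member junctions called went from 2 to 0 and MYC targets called from 1 to 0. For day 4, that fit called 0 of all 94959 junctions sharing a donor and 0 of all 14902 genes. With both donors summed, a measure added after seeing the data, the day 4 difference was 24.62 points, and at day 8 it was 4.60, opposite in sign to the exon 4 share. DESeq2 called 1 member (PPP2R5A, -1.04), 2 PP2A list genes, 2 network genes and 10 targets at day 4. For the mean of both days it called 1 network gene and 2 targets, beside 107 of all 14902 genes. Without the filter on low counts 1 member (PPP2R5A, -1.05), 2 PP2A list genes, 2 network genes and 9 targets were called at day 4. For the mean of both days that setting called 1 target, beside 41 of all 20720 genes. At day 4 limma's diffSplice also called 2 member junctions sharing a donor. The exon 3 junction (6.52 points), which edgeR called, was not among them, so the calls of these tools were not the same ones. All genes called at day 4 numbered 74 by edgeR, 1640 by DESeq2, 1567 without the filter and 126 with the replicate block; junctions sharing an acceptor numbered 20, 81 by limma, 38 at a minimum of 10 reads and 8 with the block. The cause was not tested.

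Apart from the day 8 acceptor share above, sign changes outside the leave-outs came in values near 0. Without scaling factors, which moved the median of all genes by 0.09, day 4 changes were 0.07 for PPP2R5E and 0.09 for PPP2CB, and both-day means were 0.03 for PPP2R5E and 0.03 for PPP2CA. Without the filter PPP2CA had 0.01 for the mean and PPP2R5E 0.00 at day 8, where the 8-library fit gave 0.02.

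Leaving out each library in turn gave, at day 4, 18.85 to 20.62 points for the acceptor, 6.44 to 6.60 for the exon 3 junction and -1.16 to -0.94 for PPP2R5A; without either K700E library the exon 3 junction did not reach the read minimum in 2 libraries and has no value. Counts of calls ran 0 to 1 for member junctions, 0 to 2 for members, 0 to 2 for the PP2A list, 0 to 5 for the network and 0 to 19 for targets. Log2 changes ran -0.15 to 1.06 for MYC, -0.24 to 0.24 for PPP2R5C, -0.14 to 0.08 for PPP2R5E, -0.08 to 0.06 for PPP2CB and -0.05 to 0.08 for PPP2R1A. For the mean of both days they ran -0.33 to 0.04 for PPP2R5B, -0.21 to 0.04 for PPP2R5C, -0.05 to 0.05 for PPP2R5E and -0.05 to 0.05 for PPP2CA. At day 8 the exon 4 share ran -13.59 to 3.93 points and the exon 3 junction -5.44 to 18.02. There the log2 changes ran -1.12 to 0.74 for PPP2R5A, -0.24 to 1.93 for MYC, -0.23 to 0.52 for PPP2R5B, -0.20 to 0.05 for PPP2R5D, -0.03 to 0.01 for PPP2R5E and -0.00 to 0.07 for PPP2R1B. Where 1 library is left in a group, it is assumed to vary like the others.

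The replicate numbers are shared by the groups, but no label gives them a common source. Replicate differences correlated at 0.21 between the day 4 genotypes and 0.27 at day 8, with 2 pairs each. Between days they correlated at 0.08 in wild type and -0.23 in K700E, as labelled. With so few pairs these values cannot tell whether replicates of the same number share a source. With the replicate block the acceptor gave 19.73 points (edgeR, adjusted p = 0.00568) and PPP2R5A -1.04 (edgeR, adjusted p = 0.0517); the block changed no call of a member or list. Depth limits the rare junctions: at the lowest PPP2R5A coverage, 109 reads from exon 4 at day 8, the interval of a 7.34% share spans 3.77% to 13.8%. PCR duplicates cannot be told apart, so intervals cover counting error only.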
